A study of Mus musculus with 28 samples.

Results

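Whole testes of mice at 24 months of age were compared with those at 1 month, on 4 arrays of the 28 in the series, 2 animals per age. The arrays were taken by their titles, which name testis, the ad libitum (AL) diet and the age. All animals were male C57BL/6 mice, a common inbred strain. The 1-month animals were AMC239, aged 1 month 10 days, and AMC186, aged 1 month 14 days, and the 24-month animals were AMC119, aged 2 years, and AMC163, aged 2 years 3 days. The other 10 testis arrays, 2 animals per group, served to estimate the spread and to place each difference in time. They were 4 AL testes, 2 at 6 months and 2 at 16 months, and 6 testes of mice under calorie restriction (CR, begun in young adulthood). The CR testes were those of 6, 16 and 24 months. By their source names the AL and CR animals of 16 months were all aged 1 year 3 months. Both CR animals of 24 months were aged 1 year 10 months. Those of 6 months were aged 5 months 24 days and 6 months on AL, and 5 months 27 days and 6 months 6 days on CR. One of the 1-month arrays, AMC239, carries a protocol text that speaks of ovary, whereas its title, description and source name all give testis.

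The testis makes sperm in seminiferous tubules, where spermatogonia divide, enter meiosis and mature through round and elongating spermatids under the care of Sertoli cells. Between the tubules lie Leydig cells, which make testosterone from cholesterol, together with blood vessels and a large resident population of macrophages. At the younger age the first waves of spermatogenesis have only recently been completed and the organ is still growing, so the comparison spans the end of puberty as well as old age.

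Each array held testis RNA labeled with Cy3 (green) and a Universal Mouse Reference RNA, pooled from cultured cell lines, labeled with Cy5 (red). All levels below are log2 ratios of Cy3 over Cy5 for the same probe, so that 0 means equal signal in testis and reference, 1 means a 2-fold higher signal in testis, and levels of different genes are not comparable. The median Cy3 spot signal was 1.51 to 1.69 times the local background on the 4 arrays, and the scanner software called 97.4% to 99.96% of spots well above background. The tissue label was borne out by the markers. Of 30 spermatid genes measured on all 4 arrays, 29 lay more than 2-fold above the reference on each of them. *Prm1*, a protamine that packs sperm DNA, stood at 6.79 and 6.91 at 1 month and at 6.97 and 6.75 at 24 months. None of 7 epididymis genes exceeded the reference 2-fold on all 4 arrays, and their median level was -0.03 and -0.04 at 1 month and -0.11 and -0.04 at 24 months. Entire organs were extracted, so that a change in the number of cells of a type and a change in RNA per cell cannot be told apart.

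A small set of genes was called between the ages, on an error estimated over all 14 testis arrays. A feature, that is a gene or an unnamed probe, was called when its false discovery rate (FDR, Benjamini-Hochberg, limma) was at most 0.1 and the change at least 1.5-fold. Of 38960 features tested 87 were called, or 0.223%, with 45 higher (0.116%) and 42 lower (0.108%) at 24 months. Of the 87, 58 had a gene symbol, 31 of them higher and 27 lower. Changes of more than 2-fold numbered 30, with 14 rises and 16 falls, and the largest measured, 7.21-fold for *Cap1*, came from a probe with a saturated reference channel. The next was 5.56-fold for *Srfbp1*. With the 8 AL arrays alone no feature was called (limma, smallest adjusted p = 0.102, 4956 features at an unadjusted p under 0.05), so that the calls rest on the spread of the CR arrays as well. The median absolute difference between the ages over all features was 0.08 on the log2 scale. It was 0.08 between the 1-month animals and 0.07 between the 24-month animals. The difference between the ages is one of means of 2 animals and the others are of single animals, so that their sizes are not directly comparable. Without AMC119 only 2 features were called and without AMC163 9, and the count was 5 without AMC239 and 18 without AMC186. *Srfbp1* alone of the 87 was called whichever of these 4 arrays was left out. Of the 87, 85 were measured on all 4 arrays, and the ages overlapped in none of the 85, which the choice by these same arrays largely fixes. Over all features 48.5% did not overlap. The split of rises and falls became 54 and 33 when a smaller offset of 16 was added to the signals before taking ratios.

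The leading rise was that of *Ccl8*, a chemokine that attracts monocytes and other leukocytes. Its level was 0.26 and 0.22 at 1 month and 2.15 and 1.92 at 24 months, a 3.47-fold rise (log2 change 1.79 ± 0.23, SE; adjusted p = 0.049). The 6-month testes lay between at 0.91 and 1.45, as did the 16-month testes at 1.01 and 0.66, so that the ages did not rise in a steady order. Among CR testes it stood at 0.06 and 0.25 at 6 months and at 1.92 and 1.89 at 24 months. The CR testes of 16 months gave 1.24 and 0.53, so that the CR testes of 24 months were the only others close to those of AL mice at that age.

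Immunoglobulin kappa, the light chain of most mouse antibodies, rose at both probes named for it. *Igk* went from 0.30 and 0.40 to 2.12 and 2.16 (3.46-fold, log2 change 1.79 ± 0.32, adjusted p = 0.084) and *Igkc* from -0.06 and -0.07 to 0.98 and 0.83 (log2 change 0.97 ± 0.16, adjusted p = 0.065). The ages did not overlap at either probe, which the choice by these same arrays largely fixes and which held for 48.5% of all features. Both symbols name 1 locus, so that the probes are not independent. The *Igk* spots were faint at 1 month, 66 and 53 units of Cy3 above background against 225 and 257 at 24 months, whereas for *Igkc* the reference channel moved as well (Cy5 alone -0.43, Cy3 alone 0.50 on the log2 scale). At 16 months on AL *Igk* stood at 1.35 in AMC80 and at 0.37 in AMC125.

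The next 5 called genes, each with a rise under 2-fold, were chosen for description after their values were seen. *Lilrb4a*, an inhibitory receptor of myeloid cells, rose from -3.58 and -3.50 to -2.69 and -2.96 (log2 change 0.71 ± 0.11, adjusted p = 0.064). *Clec4d*, a C-type lectin with which macrophages and neutrophils sense microbes, rose from -4.27 and -4.14 to -3.48 and -3.61 (0.66 ± 0.10, adjusted p = 0.057). *Sash3*, an adaptor of lymphocyte signaling, rose from -3.69 and -3.70 to -3.00 and -3.19 (0.60 ± 0.09, adjusted p = 0.057), while its other probe changed by 0.16. In each of these genes the 6- and 16-month AL testes lay between the 2 ages. The ages themselves did not overlap, which the choice by these same arrays largely fixes. *Nfil3*, a leucine zipper repressor that lymphocytes and many other cells use, rose by 0.82 ± 0.11 (adjusted p = 0.052) and *Akna*, which encodes an AT-hook protein of lymphoid and other cells, by 0.86 ± 0.13 (adjusted p = 0.056).

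Other leading rises belonged to genes of differing roles. *Fetub*, a secreted protease inhibitor of the cystatin superfamily, went from -1.21 and -0.84 at 1 month through -0.30 and -0.20 at 6 months and 0.03 and 0.41 at 16 months to 0.65 and 0.46 at 24 months, a 2.99-fold rise (log2 change 1.58 ± 0.24, adjusted p = 0.057). Every AL age group was thus higher than the one before it, without overlap. *Cdc25a*, a phosphatase that activates cyclin-dependent kinases, rose from 1.505 and 0.97 to 2.69 and 2.62 (1.42 ± 0.22, adjusted p = 0.057), but its highest values, 2.97 and 2.94, were those of 16 months. *Ccdc73*, a coiled-coil gene, stood at 1.88 and 1.86 against 2.87 and 2.90 (1.02 ± 0.10, adjusted p = 0.019), and most of its rise had occurred by 6 months (2.56 and 2.37). *Ror2*, a receptor for Wnt5a, went from -0.60 and -0.42 to 0.62 and 0.53 (1.09 ± 0.19, adjusted p = 0.077), with its largest step, 0.90, between 6 and 16 months.

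Small secreted or lipid-binding proteins also changed. The beta-defensins, antimicrobial peptides of epithelia that are abundant in the male tract, went both ways. *Defb15* rose from -0.03 and -0.09 to 0.93 and 1.05 (1.05 ± 0.16, adjusted p = 0.057) and *Defb34* from 0.19 and 0.00 to 1.02 and 1.07 (0.95 ± 0.16, adjusted p = 0.073), whereas *Defb14* fell from 2.95 and 2.90 to 1.82 and 1.66 (-1.19 ± 0.17, adjusted p = 0.055). None of the 3 overlapped between the ages, which their choice by these same arrays largely fixes. *Fabp1*, the fatty acid binding protein of liver and gut, rose from -0.17 and -0.04 to 0.80 and 1.08 (1.04 ± 0.18, adjusted p = 0.070). The *Defb15* and *Fabp1* spots were dim, 20 to 31 units of Cy3 above background at 1 month and 71 to 91 at 24 months. In all, 26 of the 87 called features lay under 100 such units on both arrays of the group with the lower level, 1 month for rises and 24 months for falls. Among the remaining rises were *Akr1b10*, an aldo-keto reductase (0.59 ± 0.06, adjusted p = 0.019), *Dusp7*, a phosphatase of MAP kinases (0.60 ± 0.06, adjusted p = 0.019, with 0.01 at its other probe), and *Rpia*, an isomerase of the pentose phosphate pathway (0.61 ± 0.10, adjusted p = 0.064).

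**Figure D1:**
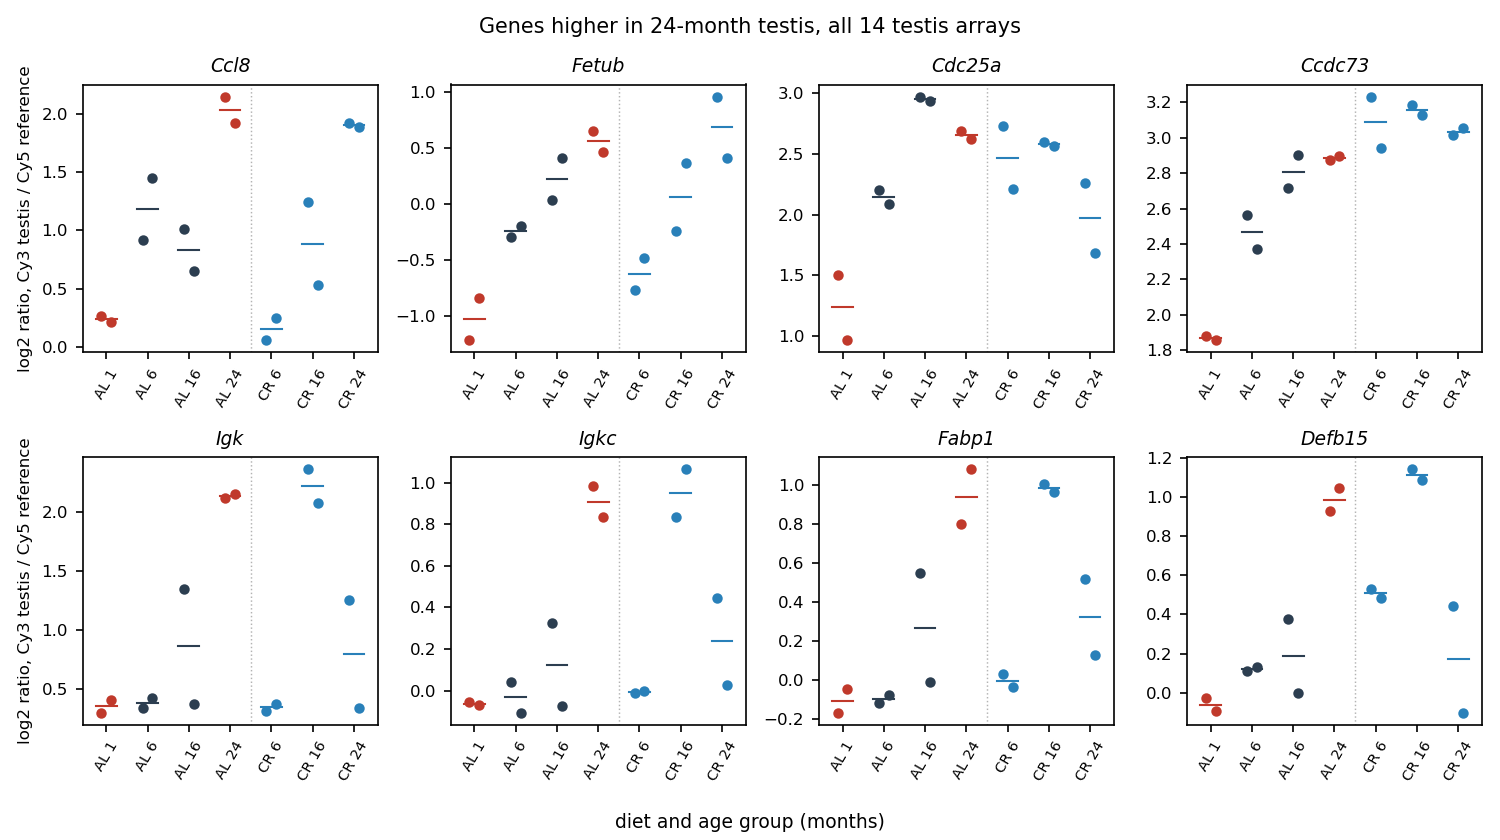
Log2 ratio of testis over reference (y axis) in the 14 testis arrays for 8 genes called higher at 24 months, by diet and age group in months (x axis). Points are single animals and lines are group means, red for the AL groups compared, dark for the other AL groups and blue for CR. *Fetub* and *Ccdc73* climb across the AL ages, whereas *Igk*, *Igkc*, *Fabp1* and *Defb15* are high in both AL 24-month and both CR 16-month testes.

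The largest fall was that of *Cap1*, which encodes a protein that binds actin and helps to recycle it. Its level was -1.17 and -0.91 at 1 month and -3.89 and -3.88 at 24 months, a 7.21-fold fall (log2 change -2.85 ± 0.44, adjusted p = 0.057). The reference channel of this probe was saturated on all 14 arrays, so that its levels are not true ratios. The testis channel alone gave -2.74, from 17732 and 18891 units of Cy3 above background to 2137 and 2566. A second *Cap1* probe changed by -1.70 ± 0.27. The 6-month values, -1.33 and -1.43, were nearer those at 1 month, and at 16 months on CR the animals stood apart at -2.41 and -3.92.

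*Srfbp1*, whose product binds the serum response factor, fell from 2.21 and 2.26 to -0.25 and -0.23 (5.56-fold, log2 change -2.48 ± 0.18, adjusted p = 0.0056), the smallest adjusted p of all features. The AL values at 6 months were 2.27 and 1.96 and at 16 months 1.61 and 2.15. Among AL testes only those of 24 months were thus low. On CR the level did not follow age, at -0.27 and -0.30 at 16 months against 1.57 and 2.03 at 24 months. *1600014C10Rik* behaved alike, at 1.26 and 1.16 against -0.10 and -0.10 (-1.30 ± 0.14, adjusted p = 0.019). *Sirt2*, an NAD-dependent deacetylase that acts on tubulin and on histones, fell from 2.62 and 2.65 to 1.53 and 1.54 (2.15-fold, -1.10 ± 0.13, adjusted p = 0.042). Its other probe changed less, by -0.42 ± 0.06. *Depdc1b*, a gene of dividing cells, fell from 0.08 and 0.14 to -0.74 and -0.84 (-0.90 ± 0.12, adjusted p = 0.049). In these 4 genes both 24-month testes lay below every AL testis of 1, 6 and 16 months.

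Transcription and germ line genes were among the other falls. *Hoxa4*, a homeobox gene expressed in male germ cells, fell from 3.24 and 2.99 to 2.29 and 2.17 (-0.88 ± 0.11, adjusted p = 0.042) and *Atoh8*, a basic helix-loop-helix factor, from 3.77 and 3.84 to 3.14 and 3.07 (-0.70 ± 0.11, adjusted p = 0.057). *Ddx4*, the germ cell RNA helicase also known as VASA, went from 4.54 and 4.51 to 3.91 and 3.83 (-0.66 ± 0.12, adjusted p = 0.088). For *Ddx4* the change lay in the reference channel: Cy3 alone gave 0.04 and Cy5 alone 0.67, and a second probe gave -0.13 ± 0.12. Only *Ddx4*, *Avpi1* and *Svopl* among the 87 moved more in Cy5 than in Cy3, and for 86 of the 87 the Cy3 change taken alone had the direction of the ratio.

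Type III collagen was the extracellular matrix gene that passed the test. *Col3a1* stood at -2.97 and -3.62 at 1 month and at -4.39 and -4.51 at 24 months (-1.15 ± 0.22, 2.23-fold, adjusted p = 0.097). At 6 months it stood at -4.30 in AMC135 and at -3.65 in AMC133, the latter near the lower of the 1-month animals. The type I chains *Col1a1* (-1.72 and -2.35 against -2.48 and -2.49) and *Col1a2* (-1.81 and -2.26 against -2.35 and -2.41) did not pass (adjusted p = 0.28 and 0.43). In each of the 3 the animal AMC239 had the highest value of the 14. The call of *Col3a1* held under 3 of 11 other settings. No gene of the collagen and matrix list was called with scanner signals, deposited values, Cy3 alone or the offset of 16. With 1 of the 4 arrays compared left out, the *Col3a1* change lay between -1.48 and -0.83. Metabolic genes among the falls were *Alad*, an enzyme of heme synthesis (0.23 and 0.40 against -0.84 and -0.87, -1.17 ± 0.23, adjusted p = 0.097), and *Nagk*, which phosphorylates N-acetylglucosamine (2.16 and 2.23 against 1.21 and 1.42, -0.88 ± 0.17, adjusted p = 0.089). *Ttc22*, a tetratricopeptide repeat gene, fell from 1.14 and 1.10 to -0.04 and -0.07 (-1.18 ± 0.15, adjusted p = 0.042), with 134 and 128 units of Cy3 above background at 1 month and 34 and 35 at 24 months. *Lrrc2*, a leucine-rich repeat gene, had fallen from 1.18 and 1.01 to 0.27 and 0.58 by 6 months and stood at 0.30 and 0.42 at 24 months (-0.73 ± 0.11, adjusted p = 0.057).

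**Figure D2:**
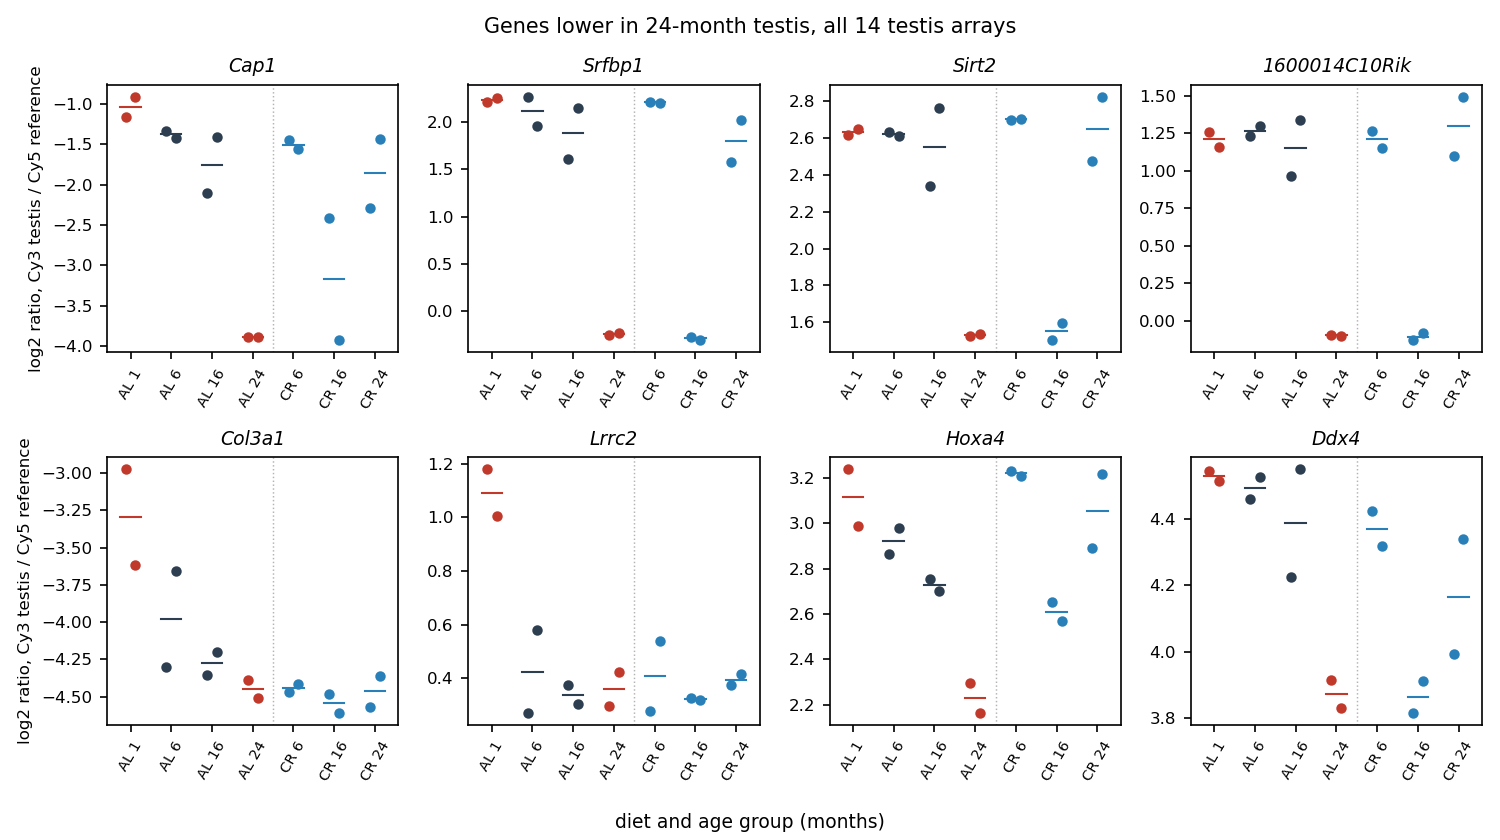
Log2 ratio of testis over reference (y axis) in the 14 testis arrays for 8 genes called lower at 24 months, by diet and age group in months (x axis). Points are single animals and lines are group means, red for the AL groups compared, dark for the other AL groups and blue for CR. *Srfbp1*, *Sirt2* and *1600014C10Rik* show a low level in the AL 24-month and CR 16-month testes only, whereas *Lrrc2* and *Col3a1* are highest at 1 month, with AMC133 of AL 6 months near the lower 1-month animal for *Col3a1*.

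Of the called features 29 had no gene symbol, 14 of them higher and 15 lower. The largest were probes Z00064662-1 (1.36 ± 0.27, adjusted p = 0.0996) and Z00031854-1 (1.08 ± 0.16, adjusted p = 0.057) among the rises, and Z00068916-1 (-1.40 ± 0.26, adjusted p = 0.088) and Z00072876-1 (-1.27 ± 0.21, adjusted p = 0.066) among the falls. A further 477 features differed by at least 1.5-fold without passing the FDR. The largest of these among the genes followed here was *Tubb6*, a beta-tubulin, at -3.71 and -3.46 against -0.87 and -0.86 (log2 change 2.72 ± 0.61, adjusted p = 0.12). At 16 months it stood at -1.06 in AMC80 and at -3.28 in AMC125. *Ly6d*, a GPI-anchored lymphoid and epithelial antigen, stood at -1.31 and -1.32 against 0.82 and -0.05 (1.70 ± 0.48, adjusted p = 0.18). *Col16a1*, a minor fibril-associated collagen, stood at 2.37 and 2.31 against 0.41 and 0.64 (-1.82 ± 0.41, adjusted p = 0.13).

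The 6- and 16-month AL arrays placed the differences in time. The means of 6 and 16 months did not enter the contrast between 24 and 1 months, although the spread within these groups entered its error. There, 40 of the 45 rises and 34 of the 42 falls went in the direction of the call, while 45.3% of all features were higher at 16 months. The median step of the rises was 0.20 from 1 to 6 months, 0.19 from 6 to 16 months and 0.36 from 16 to 24 months on the log2 scale. For the falls the medians were -0.24, -0.11 and -0.46. The first and the last of these steps share the arrays by which the genes were chosen. The last step was the largest in 28 rises and 26 falls, the first in 11 and 12, and the middle one in 6 and 4. All 3 steps had the direction of the call in 37 of the 45 rises and in 25 of the 42 falls. Between 6 and 16 months themselves 4 of 38979 features passed the test (0.0103%).

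**Figure D3:**
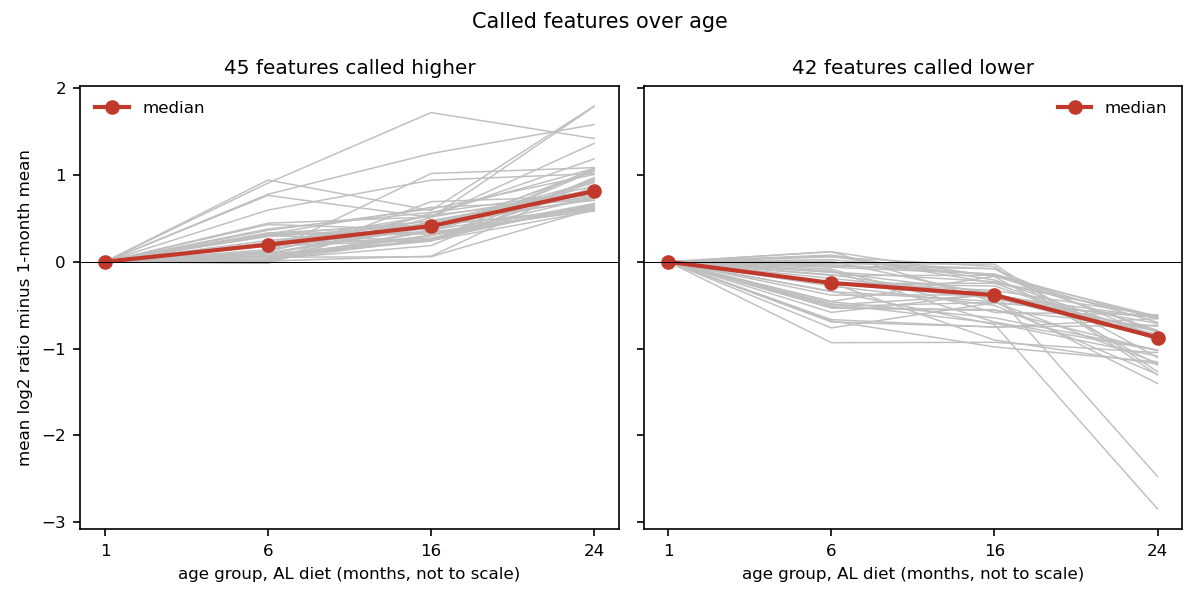
Mean log2 ratio minus the 1-month mean (y axis) at the 4 AL ages (x axis, months, not to scale) for the 45 features called higher and the 42 called lower at 24 months. Grey lines are features and the red line is their median, which changes most between 16 and 24 months. The 1- and 24-month ends are fixed by how the features were chosen.

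The 2 AL testes of 16 months differed from each other in these genes. Each array that was not compared was placed by whether a called feature lay nearer the 24-month or the 1-month mean. The called features were chosen by these means, and the share over all features is not given here. In AMC80 57 of 86 called features (66.3%) lay nearer the 24-month mean and in AMC125 25 of 87 (28.7%). The 6-month testes gave 17.2% and 32.6% on AL and 24.1% and 36.8% on CR. The highest shares were those of the CR testes of 16 months, 74.7% in AMC58 and 95.4% in AMC57, above those of the CR testes of 24 months, 56.3% in AMC207 and 35.6% in AMC208. The order of the CR arrays thus did not follow age. The CR arrays of 16 and 24 months were read by the image software on another day than the other 10 testis arrays, and a part of that day in their levels was not tested. The 4 arrays compared share 1 day.

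**Figure D4:**
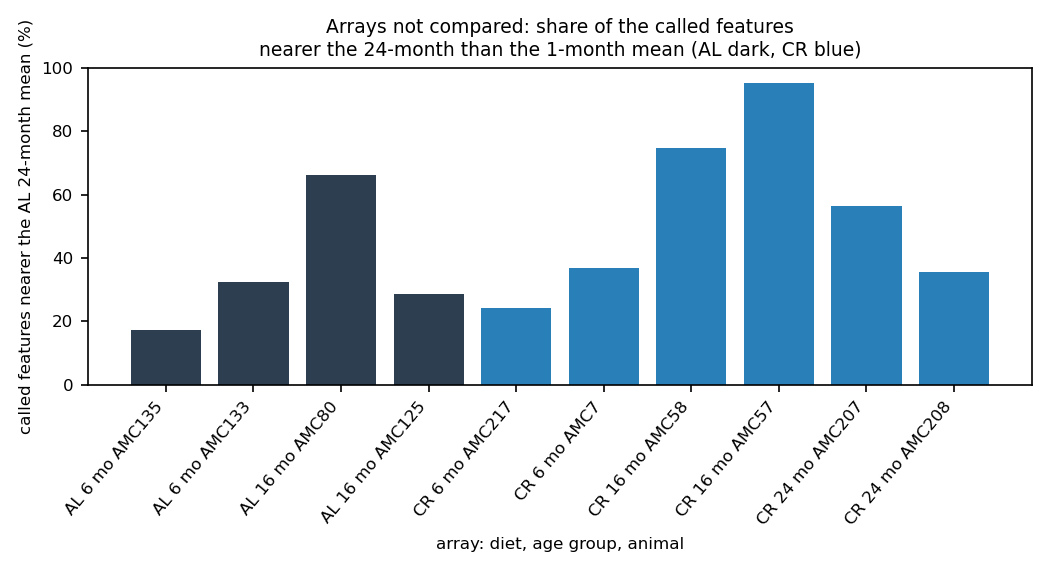
Share of the 87 called features (y axis, percent of those measured) whose level lay nearer the AL 24-month mean than the AL 1-month mean, for each of the 10 testis arrays that were not compared (x axis, by diet, age group and animal). Dark bars are AL and blue bars CR, and AMC57 of CR 16 months has the tallest bar at 95.4%. The features were chosen by these means, and the share over all features is not shown.

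A group of 14 called features, 11 falls and 3 rises, had both CR testes of 16 months nearer the AL 24-month mean and both CR testes of 24 months, as well as all 4 testes of 6 months, nearer the 1-month mean. How many of all features had this pattern is not given here. *Srfbp1* was the clearest of the 14. Its CR levels were 2.2 in both animals at 6 months, -0.27 and -0.30 at 16 months and 1.57 and 2.03 at 24 months, so that 4 of the 14 animals lay below 0 and the other 10 above 1.5. *Sirt2* read 2.70 and 2.71, 1.5 and 1.6, and 2.48 and 2.83 in the same order, and *1600014C10Rik* 1.27 and 1.15, -0.12 and -0.08, and 1.10 and 1.49. *Depdc1b*, *Hoxa4*, *Alad*, *Ttc22*, *LOC433503*, *Zbtb8os* (not measured in AMC239), *Rpia* and 4 unnamed probes were in the same group. *Igk*, outside it by 1 array, stood at 2.36 and 2.08 in the CR testes of 16 months and at 1.25 and 0.33 in those of 24 months. *Tubb6*, though not called, likewise stood at -0.91 and -0.92 in the former and at -1.73 and -3.12 in the latter. What the CR animals of 16 months have in common with the AL animals of 24 months was not tested.

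On CR, the change from 6 to 24 months was measured on 4 arrays whose means did not enter the contrast, although their spread entered its error. It had the direction of the call in 37 of the 45 rises (median 0.22) and in 24 of the 42 falls (median -0.05), while 46.1% of all features were higher at 24 months. In that comparison 8 of 38985 features passed the test (0.0205%). The difference was 1.75 for *Ccl8*, 1.31 for *Fetub*, -0.41 for *Srfbp1* and -0.50 for *Cdc25a*, over a shorter interval than that from 1 to 24 months on AL. These CR arrays of 24 months were read on another day than those of 6 months, and day and age cannot be told apart there.

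Gene lists for the cell types and pathways of the testis held 5 of the called genes: *Ccl8*, *Igkc*, *Col3a1*, *Ddx4* and *Sirt2*. Of all 14654 features with a gene symbol tested, 58 were called. The listed genes measured were not counted across lists, so that the 5 are not read as more or fewer than that share. For lists described here without a call the counts at an unadjusted p under 0.05 (limma) are given instead. Over all features that share was 7.14% higher and 6.5% lower, and 51% of features had the higher and 49% the lower mean at 24 months, with a median change of 0.00.

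Germ cell genes changed little in size, and the meiotic list leaned to the lower side. Of 24 meiotic genes measured none was called, none by the error variance of the study's own method, and 19 were lower at 24 months, 8 of them at p under 0.05 and none higher. Their median was -0.16 and lay between -0.18 and -0.11 under 10 alternatives. Per AL animal, the median from the 1-month mean was -0.14 and -0.17 at 24 months and -0.06 and -0.11 at 16 months. At 6 months it was already -0.17 in AMC135 and -0.05 in AMC133. *Dmc1*, the meiotic recombinase, stood at 1.90 and 1.72 against 1.38 and 1.34 (-0.45, adjusted p = 0.13, with -0.30 and -0.15 at its other probes). *Sycp3*, of the synaptonemal complex, stood at 5.05 and 5.08 against 4.87 and 4.61 (adjusted p = 0.14). Of 32 spermatid genes 22 were lower, with a median of -0.07 (-0.11 to 0.00 under the 10 alternatives, the latter with Cy3 alone), and 6 were lower and 2 higher at p under 0.05. *Tnp1*, *Tnp2*, *Prm1* and *Prm2*, the transition proteins and protamines of late spermatids, changed by -0.02 ± 0.18, 0.00 ± 0.07, 0.01 ± 0.17 and 0.08 ± 0.15, and *Acrv1*, an acrosomal protein, by -0.10 ± 0.07. *Akap3*, an anchoring protein of the sperm tail, stood at 3.34 and 3.31 against 4.00 and 3.94 (0.65 ± 0.23, adjusted p = 0.27).

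Among 17 genes of the piRNA pathway, which silences transposons in germ cells, 14 were lower, 2 of them at p under 0.05 and none higher at that level, with a median of -0.14. *Ddx4* was the one called, by the probe whose change lay in the reference channel, and no gene of the list was called with scanner signals, deposited values, Cy3 alone or the offset of 16. Of 17 spermatogonial genes 9 were lower and 8 higher, 1 each at p under 0.05, with a median of -0.02 that changed sign under 4 of the 10 alternatives. *Stra8*, which opens meiosis in response to retinoic acid, stood at 3.90 and 4.16 against 3.95 and 3.64 (-0.24 ± 0.14).

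In the lists of Sertoli, Leydig, peritubular myoid and endothelial cells no gene was called, also by the error variance of the study's method. The myoid and endothelial lists each had 1 gene higher and 1 lower at p under 0.05. Of 23 Sertoli cell genes 16 were higher and none reached p under 0.05. *Amh* (0.08 ± 0.09), *Clu* (0.08 ± 0.15) and *Sox9* (0.13 ± 0.20), a hormone, a secreted chaperone and the sex-determining factor of that cell type, changed by less than their errors at the brightest probe. The second *Sox9* probe gave -0.13 ± 0.06. Steroidogenesis was mixed: of 20 genes 11 were higher and 9 lower, 3 and 1 of them at p under 0.05. *Cyp17a1*, which makes androgen precursors, stood at 3.02 and 3.51 against 2.53 and 2.49 (-0.76 ± 0.23, adjusted p = 0.20) and *Cyp11a1*, which cuts the cholesterol side chain, at 1.48 and 1.78 against 0.95 and 1.01 (-0.65 ± 0.29, adjusted p = 0.37). *Sult1e1*, an estrogen sulfotransferase of Leydig cells, stood at 3.75 and 3.74 against 4.61 and 4.48 (0.80 ± 0.26, adjusted p = 0.22). *Star*, which brings cholesterol into mitochondria, stood at 2.50 and 3.08 against 2.53 and 3.00, and *Hsd17b3*, *Hsd3b6* and *Lhcgr*, 2 steroid dehydrogenases and the receptor for luteinizing hormone, changed by -0.02 to -0.06.

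Most immune lists leaned to the higher side, while the medians of mast cells and of T and NK cells lay near 0. Of 8 mast cell genes 4 were higher and 4 lower, 1 higher at p under 0.05 and none lower, with a median of -0.02. Of 15 genes of T and NK cells 10 were higher, 2 at p under 0.05 and none lower at that level, with a median of 0.03 that changed sign under 3 of 10 alternatives. Of 21 macrophage genes 16 were higher, 12 of them at p under 0.05 against 1 lower, with a median of 0.29 (0.19 to 0.45 under 10 alternatives); none was called, and by the error variance of the study's method *Ctss* and *C1qc* were. *Ctss*, a lysosomal protease, stood at -4.27 and -4.25 against -2.78 and -3.38 (1.18 ± 0.29, adjusted p = 0.13). *C1qc*, a chain of the complement starter C1q, stood at 1.49 and 1.67 against 2.84 and 2.39 (1.04 ± 0.27, adjusted p = 0.155). *Lyz2*, the lysozyme of myeloid cells, stood at -0.81 and -0.61 against 0.86 and 0.03 (1.15 ± 0.33, adjusted p = 0.19, with 0.93 and 0.12 at its other probes). The 2 old animals were not alone: relative to the 1-month mean the list's median was 0.45 and 0.27 at 24 months, 0.10 and 0.38 at 6 months and 0.04 and 0.01 at 16 months. The 6-month animal with 0.38 was AMC133, in which the medians of the Sertoli and Leydig cell lists were also raised, at 0.43 and 0.34, against 0.23 and 0.12 in AMC119 and -0.06 and 0.02 in AMC163.

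Of 31 chemokine and cytokine genes 23 were higher, with *Ccl8* called, and 9 were higher and 2 lower at p under 0.05, with a median of 0.12 (-0.01 to 0.18 under 10 alternatives). *Cxcl5*, which attracts neutrophils, stood at -2.28 and -2.41 against -1.64 and -1.35 (0.85 ± 0.18, adjusted p = 0.11). Of 12 genes of antigen presentation 10 were higher, as were 12 of 17 complement genes, with medians of 0.15 and 0.16. The former median was 0.07 without AMC239 and 0.04 with Cy3 alone. The latter was 0.03 without AMC119 and 0.04 with Cy3 alone, and from the 1-month mean it stood at 0.22 in AMC119, 0.03 in AMC163 and 0.27 in AMC133 of 6 months. At p under 0.05 these lists had 4 and 5 genes higher and 0 and 1 lower, and the error variance of the study's method called *Psmb8* in the former and *C1qc* in the latter. *Psmb8*, a subunit of the immunoproteasome, stood at -3.34 and -3.26 against -2.76 and -2.55 (0.65 ± 0.16, adjusted p = 0.145, with 0.34 at its other probe). *Gzma*, a granzyme of cytotoxic lymphocytes, passed the FDR but not the fold (-0.43 and -0.48 against -0.07 and -0.02, 0.41 ± 0.04, adjusted p = 0.019). Of 11 genes of B and plasma cells 8 were higher and *Igkc* was called.

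Among 21 genes that interferon induces, 19 were higher at 24 months and 10 reached p under 0.05, with none lower at that level and none called, also by the error variance of the study's method. The median was 0.15, and 0.10 to 0.24 under 10 alternatives. Per animal, the median from the 1-month mean was 0.15 and 0.24 at 24 months, 0.10 and 0.13 at 16 months, and 0.04 and 0.19 at 6 months. *Isg15*, a ubiquitin-like modifier, stood at -2.95 and -2.91 against -2.55 and -2.39 (0.46 ± 0.11, adjusted p = 0.13, with 0.255 at its other probe). *Bst2*, which tethers budding viruses, stood at -2.98 and -2.79 against -2.11 and -2.33 (0.66 ± 0.21, adjusted p = 0.22). The promoters of such genes often hold the interferon-stimulated response element, searched here on both strands as GAAA, any 2 bases and GAAA again, overlaps counted, in 250 bases before to 50 after the first listed start of a gene (RefSeq, GRCm38.p6). It was found in 12 of the 20 listed genes with a promoter, in 3.49% of 27025 genes in all, and in 2 of 21 features called higher with a promoter and 0 of 17 called lower. *Isg15* and *Bst2* are shown as members of the list with 3 and 2 overlapping matches, *Clec4d* as a called gene with a match that begins at its start and *Ccl8*, the largest rise, as one without. Capitals mark the matches. The windows are chr4:156200769-156201068 on the minus strand, chr8:71537423-71537722 on the minus strand, chr6:123261857-123262156 on the plus strand and chr11:82114935-82115234 on the plus strand.
Isg15: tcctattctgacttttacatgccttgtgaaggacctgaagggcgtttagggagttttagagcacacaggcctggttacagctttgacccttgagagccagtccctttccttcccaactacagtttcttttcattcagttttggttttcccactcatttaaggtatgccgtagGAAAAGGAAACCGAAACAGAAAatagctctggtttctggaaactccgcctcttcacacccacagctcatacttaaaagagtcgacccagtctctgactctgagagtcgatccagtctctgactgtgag
Bst2: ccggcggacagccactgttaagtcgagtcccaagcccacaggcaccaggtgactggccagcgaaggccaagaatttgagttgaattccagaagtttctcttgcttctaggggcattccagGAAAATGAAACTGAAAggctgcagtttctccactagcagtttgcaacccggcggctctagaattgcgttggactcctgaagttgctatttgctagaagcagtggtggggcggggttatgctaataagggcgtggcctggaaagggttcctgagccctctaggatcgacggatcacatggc
Clec4d: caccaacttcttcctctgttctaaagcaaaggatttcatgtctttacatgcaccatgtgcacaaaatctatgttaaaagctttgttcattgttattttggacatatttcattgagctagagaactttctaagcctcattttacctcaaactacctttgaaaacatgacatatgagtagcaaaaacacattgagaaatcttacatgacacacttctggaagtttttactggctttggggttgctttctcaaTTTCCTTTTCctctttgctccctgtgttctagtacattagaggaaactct
Ccl8: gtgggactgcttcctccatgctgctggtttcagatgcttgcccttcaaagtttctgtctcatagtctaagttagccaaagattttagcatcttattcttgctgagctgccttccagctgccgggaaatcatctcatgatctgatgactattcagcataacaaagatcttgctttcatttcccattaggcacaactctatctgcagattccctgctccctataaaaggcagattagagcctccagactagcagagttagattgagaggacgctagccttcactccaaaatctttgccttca

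Glutathione transferases, enzymes of detoxification, and junction genes leaned the same way without a call. Of 19 glutathione transferases 15 were higher, 5 at p under 0.05 against 1 lower, with a median of 0.25. That median was 0.11 without AMC119 or with Cy3 alone and 0.14 without AMC239, and from the 1-month mean the list stood at 0.30 in AMC119, 0.11 in AMC163 and 0.38 in AMC133 of 6 months. *Gstm1* stood at 1.32 and 2.04 against 2.57 and 2.41 (0.81 ± 0.34, adjusted p = 0.34) and *Gstm2* at 0.85 and 1.49 against 2.00 and 1.87 (0.77 ± 0.23, adjusted p = 0.21). In both genes AMC239 was the lowest of the testis arrays, with *Gstm2* not measured in AMC133. Of 17 genes of the blood-testis barrier 13 were higher with a median of 0.21, but the median from the 1-month mean was 0.30 in AMC119 and 0.03 in AMC163, and 1 gene reached p under 0.05 in each direction.

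Of 31 collagens and matrix genes 19 were lower, 8 of them at p under 0.05 and none higher, with a median of -0.05 (-0.19 to -0.04 under 10 alternatives). The Adam proteases, many of them on sperm, had 16 of 29 lower, 8 at p under 0.05 against 1 higher, with a median of -0.03. That median lay between -0.09 and 0.07 under 10 alternatives, the latter with Cy3 alone. The proteasome had 7 of 36 genes higher and 2 lower at that level, and *Psma8*, its subunit in meiotic cells, stood at 5.15 and 4.82 against 4.38 and 3.96 (-0.82 ± 0.18, adjusted p = 0.11). Of 14 genes of fat cells 10 were lower, 2 at p under 0.05 against 1 higher, and *Fabp4*, the fatty acid binding protein of adipocytes, varied more within the ages than between them, at -1.42 and 2.07 against -1.38 and 0.63. The mitochondrial electron transport genes (69 genes, median 0.01), the mitochondrial ribosome (67, median 0.03), the cytosolic ribosome (71, median 0.00) and the heat shock proteins (26, median -0.01) stood at the median of all features within 0.03. No gene of these 4 lists was called, and 1, 3, 3 and 2 were higher and 5, 2, 4 and 4 lower at p under 0.05. Of 14 sirtuin and telomere genes *Sirt2* was called and 7 were lower. The cell cycle inhibitors *Cdkn2a* and *Cdkn1a*, markers of senescent cells, changed by -0.04 ± 0.09 and 0.27 ± 0.12 (adjusted p = 0.90 and 0.37), and *Igf2* and *H19*, imprinted genes of growth, by -0.09 ± 0.07 and -0.12 ± 0.04 (adjusted p = 0.56 and 0.26). The second *Cdkn1a* probe gave 0.05 ± 0.06.

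**Figure D5:**
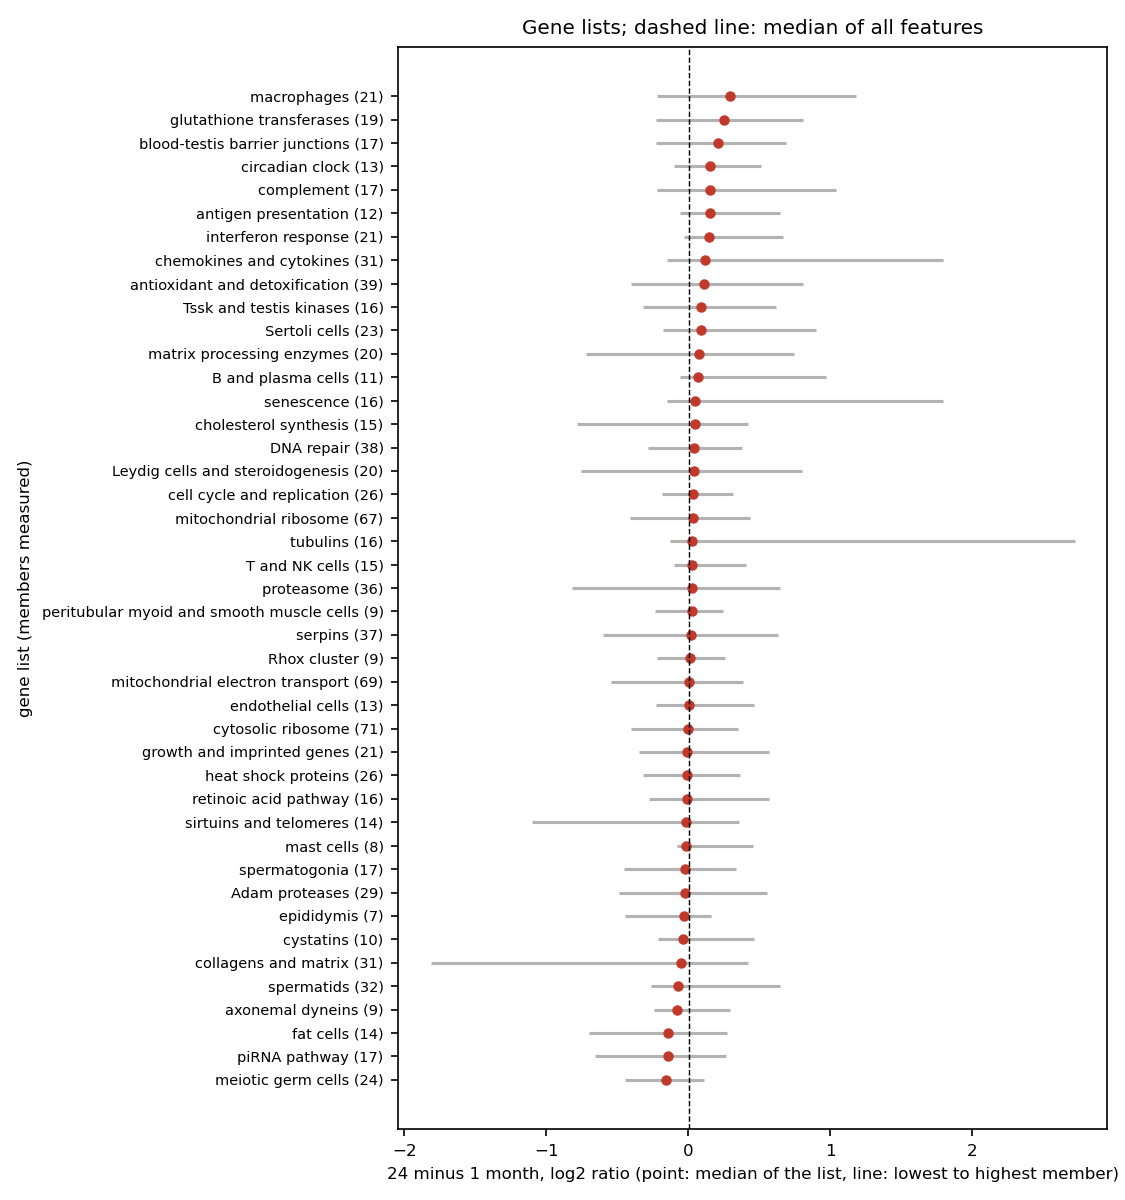
Change from 1 to 24 months on the log2 scale (x axis) for each gene list with at least 5 members measured (y axis, members measured in parentheses). Points are list medians, lines run from the lowest to the highest member, and the dashed line is the median of all features at 0.00; macrophage genes lie highest at 0.29 and meiotic genes lowest at -0.16.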

How the data were processed

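Each array was read by the image software Agilent Feature Extraction, and the authors deposited the spot intensity of both channels per array. They also deposited a table of processed log10 values, which equalled the log10 ratio plus a constant for each probe in 98.01% of 25577 rows (range under 0.01; column medians 3.143 to 3.155), so that their centring per probe stays unknown. Here spot intensities were background-corrected (normexp, offset 50) and loess-normalized within each array (limma 3.58.1, R 4.3.3), with flagged and control spots left out. The 42006 probes were named from the study's gene tables or through RefSeq accessions of an earlier array version matched by probe sequence, giving symbols to 17679 probes. A gene took its brightest probe. One linear model over all 14 testis arrays, with a mean per group, estimated the error and eBayes moderated it. A simulation with known changes was used to test the model. The rule for naming genes covered the 15 largest called rises and falls and the called and 2 most changed members of each list. It also covered a fixed set of marker genes. Not every gene under the rule is described, and some of the larger called rises and falls are left out. In addition, 14 further called genes were added after their values were seen. The genes, lists and comparison were chosen with earlier results of these data known. Replicates are separate animals, and 2 per age limit the precision. The result of 1 called gene is not reported here.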

Additional observations from a re-analysis of the deposited data

How the results depend on the processing

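No paired analysis was possible because the ages were measured in different animals. The count of 87 became 60 with the signals normalized by the scanner software and 62 with the deposited values (25527 features tested) or with Cy3 alone, and was 87 with an offset of 16 (54 higher, 33 lower, against 45 and 42). It rose to 204, 74 of them over 2-fold against 30, with the error variance of the study's ANOVA under a normal reference distribution. It was 53, with 19 over 2-fold, on the 10 arrays of the same day, 13 (7 over 2-fold) at an FDR of 0.05, and 0 (0 over 2-fold) with the 8 AL arrays alone, where the smallest adjusted p was 0.102 and 4956 features had an unadjusted p under 0.05. Leaving out 1 of the 14 arrays gave 2 to 198 features, and 2 to 65 over 2-fold. The low end came from the arrays compared and the high end from AMC135 or AMC133 of 6 months. All 87 were among the 198 and the 204, and 35, 36 and 25 of them remained with scanner signals, deposited values and Cy3 alone. Of the 58 named genes 1 changed direction, *Ddx4*, at 0.039 with Cy3 alone. With 2 animals per age, leaving out 1 of the 4 kept the call of a named gene in 10 instances and lost it in 220, with no change of direction. The causes of these shifts were not tested.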
